A study of Caenorhabditis elegans with 11 samples.

Results

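The genes described here are 6 Caenorhabditis elegans genes named for their likeness to Hedgehog and to its receptor Patched. They are the ground-like genes grl-5, grl-7 and grl-15, the warthog genes wrt-6 and wrt-8, and the patched-related gene ptr-17. They were chosen by name from 939 distinct genes in 6 deposited tables, where they take up 8 of 1106 entries and 32 single-library values, none of them 0. In N2, 5 of the 6 were listed (all but wrt-6). In smg-1, 3 were listed (grl-5, wrt-6 and wrt-8), and in glp-4 none.

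Worms have no clear counterpart of the canonical Hedgehog ligand but carry large families of related secreted proteins, named warthog, groundhog, ground-like and quahog. They also carry a large family of patched-related membrane proteins with a sterol-sensing domain. Many genes of these families are active in the hypodermis and in other epithelia that secrete or line the cuticle. Several are needed for moulting, and the messenger RNA of many rises and falls with each larval moulting cycle.

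RNA came from whole worms fed bacteria that express double-stranded RNA against a splicing gene (prp-6, prp-8 or prp-31, whose products belong to the tri-snRNP particle), and from controls fed a gfp clone. The mutant smg-1(r861) (strain TR1331), which is defective in nonsense-mediated mRNA decay, gave 4 libraries, 1 for each of the knockdowns and 1 for the control, and so did wild-type N2. These 8 larval libraries came from synchronized L1 larvae fed the clones for 24 h at 20 °C and labelled L3. The mutant glp-4(bn2) (strain SS104), whose germ cells do not proliferate at 25 °C, gave 3 libraries (prp-8, prp-31 and gfp RNAi) from 5-day adults that had 72 h on the food strain OP50 before 48 h on the clones. The glp-4 titles say L3 against the stage field, and the glp-4 tables are titled glp-1.

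With a single library in each of the 11 groups, nothing below could be checked against replicates, and no test was made. The values are the authors' FPKM, fragment numbers corrected for the length of the transcript and the size of the library. By the labels, every library had more than 50000000 reads, and beyond that lower bound its depth is not known here. Each table holds genes that the submitters selected as higher or lower in the pooled knockdowns of a strain than in its gfp control, so the direction of a table was fixed by that selection. A gene outside a table has no value here. Fold changes compare FPKM + 1 with FPKM + 1, which compresses the differences of weakly expressed genes, and "at least 2-fold" refers to that scale. In whole worms, more cells of a type and more RNA per cell cannot be told apart. As a check of the labels, prp-31 itself was 25.3 FPKM with its own clone, against 40.6 FPKM under gfp in N2, and 24.0 against 31.4 FPKM in smg-1, while the other clones gave 95.3 to 144 FPKM. The targets prp-6 and prp-8 were in no table and were not checked.

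The comparison in wild-type larvae asks which genes respond to depletion of a splicing factor. In N2, all 5 listed members were highest in the prp-6 library. All 5 were at least 2-fold higher under prp-6 than under gfp, where 83.9 percent of the genes of the N2 higher table were. After the median of all N2 entries under prp-6 (a log2 fold of 1.72) was subtracted, 4 of the 5 were, and ptr-17 was not, with 0.74. The share of the table past 2-fold on that subtracted scale was not computed. Under prp-8 none of the 5 was at least 2-fold higher, against 42.3 percent of that table. Under prp-31 it was 2 of 5, grl-5 and wrt-8, against 28.9 percent. The members' median log2 fold was 3.27 under prp-6, 0.44 under prp-8 and 0.97 under prp-31, beside 2.05, 0.65 and 0.67 over the whole higher table.

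The 3 ground-like genes encode small secreted proteins with a ground-like domain. The gene grl-15 (Y75B8A.20, chromosome III, deposited interval 12235412 to 12235711) had 338 FPKM under prp-6, 47.1 under prp-8 and 43.9 under prp-31, against 27.3 under gfp. It was 12-fold higher under prp-6, and the other knockdowns lay close to each other at 1.70-fold and 1.59-fold. The gene grl-7 (T02E9.2, chromosome V, 11346514 to 11347014) had 208 FPKM under prp-6, 28.3 under prp-8 and 41.3 under prp-31, against 20.6 under gfp. All 3 knockdowns were again above gfp, by 9.67-fold, 1.35-fold and 1.95-fold.

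The third ground-like gene did not keep to that order. The gene grl-5 (Y47D7A.5, chromosome V, 4414531 to 4414626) had 201 FPKM under prp-6, 8.05 under prp-8 and 34.8 under prp-31, against 14.8 under gfp. The prp-8 library was thus below gfp, by 1.75-fold, while prp-6 was 12.8-fold and prp-31 2.26-fold above it. Its prp-6 fold ranked 9 among the genes of the table and its prp-8 fold ranked 354.

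Warthog proteins are secreted, and some of them carry a self-cleaving domain like that of Hedgehog. The gene wrt-8 (C29F3.2, chromosome V, 15344406 to 15344572) had 33.1 FPKM under prp-6, 1.17 under prp-8 and 8.25 under prp-31, against 2.74 under gfp. Like grl-5 it was below gfp under prp-8, by 1.72-fold, and above it under prp-6 (9.12-fold) and prp-31 (2.47-fold). Its prp-8 fold ranked 353 in the table, next to that of grl-5. Of all genes in the table, 31.8 percent were below gfp under prp-8, against 2 of these 5.

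The patched-related gene ptr-17 (Y18D10A.7, chromosome I, 12834665 to 12843233) was the lowest of the 5 in level under gfp, prp-6 and prp-31. It had 8.02 FPKM under prp-6, 1.57 under prp-8 and 1.63 under prp-31, against 0.639 under gfp. The prp-8 and prp-31 libraries were almost alike (1.57-fold and 1.61-fold higher), and prp-6 was 5.51-fold higher. Since its gfp value lies under 1 FPKM, the fold rests on the pseudocount more than for the other members: its log2 fold under prp-6 was 2.46 with a pseudocount of 1 FPKM, 3.46 with 0.1 FPKM and 1.21 with 5 FPKM. In the authors' deposited table, which compares the pooled knockdowns with gfp, ptr-17 had a q-value of 0.0268, and grl-15 0.0509, wrt-8 0.0566 and grl-5 and grl-7 0.0613.

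**Figure D1:**
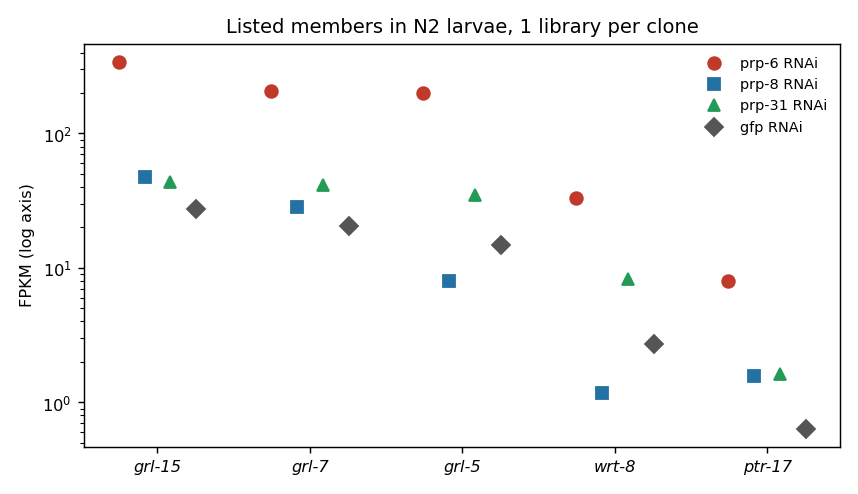
FPKM of the 5 listed members in N2 larvae (log axis), 1 point per library, the 3 knockdowns left of the gfp control. The prp-6 library is the highest for every gene, and the prp-8 library lies below gfp for grl-5 (8.05 against 14.8 FPKM) and wrt-8 (1.17 against 2.74 FPKM).

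The clones were also set directly against each other. The ratio of prp-6 to prp-8 (FPKM + 1) was 22.3 for grl-5, 15.7 for wrt-8, 7.15 for grl-7, 7.06 for grl-15 and 3.51 for ptr-17. All 5 were at least 2-fold higher under prp-6 than under prp-8, against 53.1 percent of the table, and also at least 2-fold higher under prp-6 than under prp-31, against 60.9 percent. Between prp-8 and prp-31 the members fell into 2 sets: the log2 ratio of prp-8 to prp-31 was −2.09 for wrt-8 and −1.98 for grl-5, but −0.53 for grl-7, −0.03 for ptr-17 and 0.10 for grl-15. These sets were chosen after the values were seen.

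Among the 5, the order of the levels was nearly constant. It ran grl-15, grl-7, grl-5, wrt-8, ptr-17 under prp-6, under prp-31 and under gfp, and only the last pair changed places under prp-8. Under prp-6 the highest member was 42.2 times the lowest, and under gfp 42.7 times. Across the 4 libraries a single member spanned 10.1 times (grl-7) to 28.3 times (wrt-8) from its lowest to its highest FPKM.

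The pooled difference that put these genes in the higher table rested mostly on the prp-6 library. The median log2 fold of the mean knockdown over gfp was 2.11 for the 5 members. Without the prp-6 library it was 0.67, without prp-8 2.54 and without prp-31 2.46. Without prp-6 each member was still above gfp, by a log2 fold of 0.50 (grl-5) to 0.73 (grl-7).

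**Figure D2:**
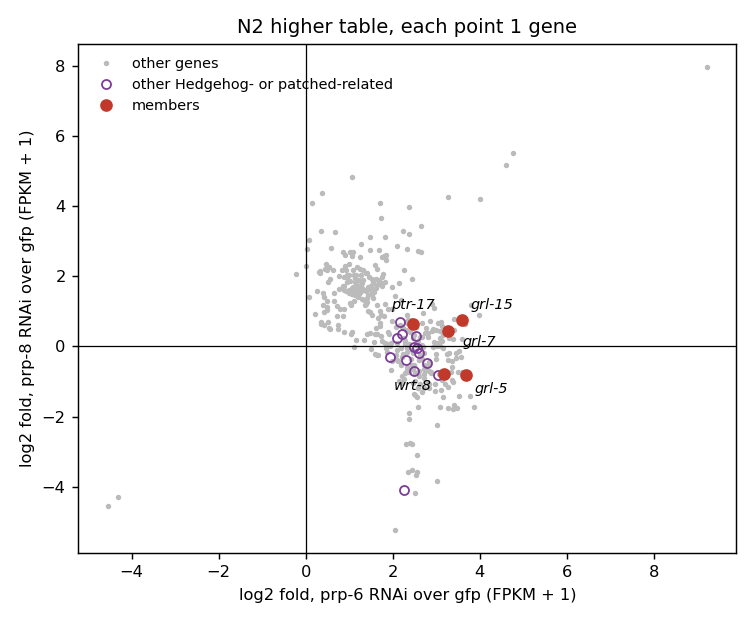
Log2 fold under prp-6 RNAi over gfp (x axis) and under prp-8 RNAi over gfp (y axis) for the genes of the N2 higher table, on the FPKM + 1 scale. The 5 members and the 13 other Hedgehog- or patched-related genes all lie right of 1 on the x axis and below 1 on the y axis. Both axes share the gfp library.

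The other listed family genes were highest under prp-6 as well. The N2 higher table held 18 Hedgehog-related or patched-related genes, members included: 10 ligand-like genes and 8 patched-related ones, daf-6 and che-14 counted as patched-related. By name, 5 of 31 annotated grl genes, 1 of 16 grd, 3 of 10 wrt and 6 of 24 ptr genes were listed, 17.9 percent of the 84 annotated grl, grd, wrt, hog, ptr and ptc genes. Of all protein-coding genes, 1.72 percent were in that table. None of the 84 was in the N2 lower table. The single hog gene and both ptc genes, the closest relatives of Patched, were in no table.

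In all 18 genes prp-6 was the highest of the 4 libraries, against 61.1 percent of the table, and all 18 were at least 2-fold higher under prp-6 than under gfp, against 83.9 percent. With the N2 median under prp-6 subtracted, 6 of the 18 were, 4 of them members, and the share of the table on that scale was not computed. The median log2 fold under prp-6 was 3.27 for the 5 members and 2.35 for the 16 other listed genes of the family and pathway, a difference that was not tested, beside 2.05 over the table. The 5 members also had the smallest q-values of these genes in the authors' deposited table, 0.0268 to 0.0613, against 0.0779 to 0.296 for the 16 others. Those q-values come from the same libraries, so the larger prp-6 folds of the members are no separate finding about them. No gene of the 18 was at least 2-fold higher under prp-8 (42.3 percent of the table). Under prp-31 it was 7 of 18 (28.9 percent of the table). Over the 18 genes the median log2 fold was −0.12 under prp-8 and 0.80 under prp-31, so they were listed as higher mostly through prp-6. That prp-6 was their highest library is favoured by this selection and is no separate finding. The ligand-like genes had median log2 folds of 2.58 under prp-6, −0.03 under prp-8 and 0.82 under prp-31; for the patched-related genes they were 2.38, −0.34 and 0.80.

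Of the ligand-like genes that are not members, grl-22 had 15.4 FPKM under prp-6, 1.34 under prp-8 and 4.37 under prp-31, against 1.68 under gfp. The quahog gene qua-1, which is needed for moulting, had 130 FPKM under prp-6, 46.8 under prp-8 and 27 under prp-31, against 28.3 under gfp. The gene grl-16 stood apart under prp-8: it had 521 FPKM under prp-6, 5.45 under prp-8 and 305 under prp-31, against 109 under gfp, so prp-8 was 17-fold below the control.

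Of the patched-related genes, ptr-16 had the largest prp-6 fold, with 35.4 FPKM under prp-6, 1.52 under prp-8 and 8.48 under prp-31, against 3.43 under gfp. Its profile was close to that of wrt-8. The next largest was that of ptr-18, with 80.8 FPKM under prp-6, 7.49 under prp-8 and 20.3 under prp-31, against 10.8 under gfp. The smallest prp-6 fold of the whole family was that of ptr-20, 3.85-fold, and that of che-14, which resembles the Hedgehog-releasing protein Dispatched, was next at 4.30-fold. The gene daf-6, which shapes the channel of a sense organ, was 4.65-fold higher under prp-6, 1.27-fold under prp-8 and 1.24-fold under prp-31.

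In the prp-8 library, the family lay on both sides of gfp, as the members did. In 11 of the 18 genes prp-8 was below gfp (61.1 percent, against 31.8 percent of the table), among them grl-5, wrt-8 and 5 patched-related genes. Of the 11, grd-2 and wrt-4 were almost at the gfp level under prp-8, with log2 folds of −0.007 and −0.05. In those 11 the log2 fold under prp-31 ran between 0.53 and 1.48 with a median of 1.08. In the other 7, among them grl-7, grl-15 and ptr-17, it ran between −0.07 and 0.97 with a median of 0.61. The median under prp-6 was 2.55 in the 11 and 2.46 in the 7. This split was made after the values were seen. To be listed as higher, a gene below gfp under prp-8 had to be above it under another clone. The larger prp-31 and prp-6 medians of the 11 are thus favoured by the selection and are no separate finding. Of the 7, wrt-9, daf-6 and che-14 turned negative under prp-8 when the median of all N2 entries (0.35) was subtracted, and no member changed sign.

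**Figure D3:**
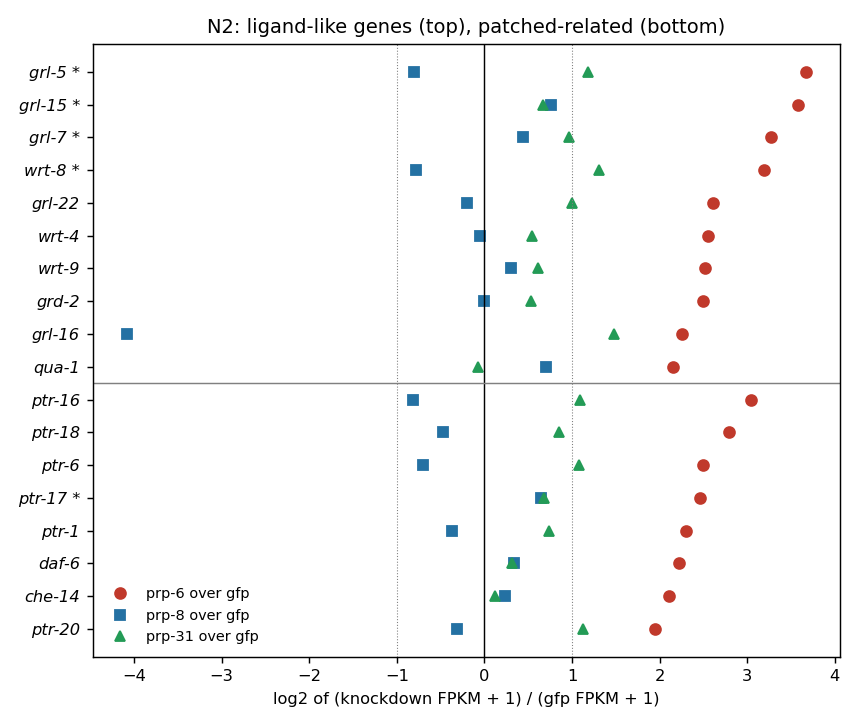
Log2 of (knockdown FPKM + 1)/(gfp FPKM + 1) in N2 for the 18 listed family genes, ligand-like above the line and patched-related under it, members marked with an asterisk. Dotted lines mark 2-fold. Every prp-6 point (circles) lies beyond 2-fold, with log2 folds of 1.95 to 3.67, and the prp-8 points (squares) lie between −4.09 and 0.77.

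Cuticle genes listed as higher in the same larvae followed a like pattern. The N2 higher table held 46 genes of a list of collagens and other cuticle and moulting genes, with median log2 folds of 2.56 under prp-6, −0.24 under prp-8 and 1.01 under prp-31. Under prp-8 the log2 folds ran from −4.17 to 4.08. The list also takes in the pqn and abu genes by name, and it shares qua-1, mlt-9 and mlt-10 with the other family and pathway genes above. Of these genes, 30 of the 46 (65.2 percent) were below gfp under prp-8, against 31.8 percent of the table. The N2 lower table held 4 more genes of the list, all below gfp under prp-6, as were all 66 genes of that table. Their median log2 folds were −1.16 under prp-6, −1.15 under prp-8 and −1.23 under prp-31. Of 19 hypodermis and seam markers, 3 were listed in N2, and all 3 in the higher table. The collagen gene rol-6 had 1236 FPKM under prp-6, 134 under prp-8 and 282 under prp-31, against 138 under gfp, and sqt-3 had 1801, 349 and 359, against 269. The third, the moulting regulator nhr-25, had 23.5, 10.3 and 10.7 FPKM, against 6.55. The summed level of the 3 was 3060, 493 and 651 FPKM in the knockdowns, against 414 under gfp. The germline marker glh-2 had 2.56, 2.36 and 5.86 FPKM, against 10.4 under gfp, and was the only 1 of 17 germline markers listed in N2. Of 6 markers of glia and the excretory duct, aqp-8, an aquaporin gene, was listed in N2, with 21.2, 46.5 and 65.8 FPKM in the knockdowns, against 118 under gfp. No marker of intestine, body wall muscle, pharynx or neurons was listed there. The part of hypodermal or moulting state in the members' differences was not tested.

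By profile, each member had neighbours in the table. Likeness was the Euclidean distance between the 3 log2 folds over gfp, among 158 other genes that have a public name and a value above 0 in each library, and since the folds share the gfp library it is a description. The genes nearest to grl-5 were acdh-6, an acyl-CoA dehydrogenase gene (distance 0.21), the lipase-like gene lips-9 (0.37) and the collagen gene col-173 (0.43). Nearest to wrt-8 were lips-9 (0.16), ptr-16 (0.26) and col-173 (0.26). Nearest to grl-15 were pqn-32 (0.45), grl-7 (0.54) and the saposin-like gene spp-13 (0.59). Nearest to grl-7 were lgc-22, an ion channel gene (0.19), spp-13 (0.33) and abu-13 (0.37). Nearest to ptr-17 were the neprilysin-like gene nep-1 (0.13), dos-2 (0.28) and wrt-9 (0.36).

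In structure the members are diverse. The annotation gives 2 introns to grl-15, 3 to grl-5, 5 to grl-7, 9 to wrt-6, 10 to wrt-8 and 16 to ptr-17, beside a median of 4 (quartiles 2 and 6) over the 789 listed genes matched by name. The longest coding length runs between 507 bases (grl-15) and 2715 bases (ptr-17). The genes with the most and the fewest introns, ptr-17 and grl-15, both had prp-8 and prp-31 close together in N2. This was seen after the values were known, and any relation of intron number to the folds was not tested.

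In smg-1 larvae, in which aberrant transcripts escape decay, the members did not share a direction. The smg-1 tables, with 485 genes, listed wrt-8 as higher and grl-5 and wrt-6 as lower. Under prp-6, 1 of the 3 was at least 2-fold higher (wrt-8), against 29.3 percent of the 485. Under prp-8, 1 was at least 2-fold lower (grl-5), against 21 percent, and under prp-31, 2 were (grl-5 and wrt-6), against 11.5 percent.

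The gene wrt-8 had 38.8 FPKM under prp-6, 16.8 under prp-8 and 13.6 under prp-31 in smg-1, against 9.95 under gfp. All 3 knockdowns were above gfp, by 3.63-fold, 1.63-fold and 1.34-fold, and prp-6 was again the highest. When the median of all smg-1 entries was subtracted, the log2 fold under prp-8 changed sign, with a value of −0.56 against 0.70 as it stands. In the authors' deposited table its q-value was 0.0725.

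The gene grl-5 had 118 FPKM under prp-6, 64.2 under prp-8 and 44.3 under prp-31 in smg-1, against 153 under gfp. All 3 knockdowns were below the control, by 1.30-fold, 2.37-fold and 3.40-fold, so that prp-31, which was above gfp in N2, gave the lowest value here. Its q-value in the authors' deposited table was 0.0626. The warthog gene wrt-6 (ZK377.1, chromosome X, 3480251 to 3483661) had 12.8 FPKM under prp-6, 11.7 under prp-8 and 7.46 under prp-31, against 18.1 under gfp. The order of its libraries was that of grl-5, in a narrower range: 2.43 times between its lowest and highest value, against 3.46 times for grl-5. In the authors' deposited table its q-value was 0.27.

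The genes nearest to wrt-6 in the smg-1 lower table, among 61 named genes, were mlt-10 (0.15), a gene named for a moulting defect, the collagen gene col-153 (0.23) and cnc-3 (0.46). Nearest to grl-5 were lips-9 (0.40), glf-1 (0.76) and mlt-10 (0.78), so lips-9 was among its 3 nearest in both strains. Nearest to wrt-8 in the higher table, among 141, were the insulin-like gene ins-20 (0.37), nhx-6 (0.59) and ced-11 (0.64). No patched-related gene was in the smg-1 tables. Of the other pathway genes, tra-1, the worm homologue of the Hedgehog-pathway factor GLI with a known part in sex determination, had 19.3, 33.5 and 16.1 FPKM under prp-6, prp-8 and prp-31, against 10.4 under gfp. It was highest under prp-8, not prp-6. Of the cuticle and moulting list, 4 genes were in the smg-1 higher and 7 in the lower table, and no hypodermis marker was listed. The markers listed in smg-1 were phat-5 of the pharynx, with 7.17, 18.1 and 5.63 FPKM in the knockdowns, against 2.69 under gfp, and the vitellogenin gene vit-6 of the intestine, with 0.624, 0.715 and 0.286 FPKM, against 0.0844. The part of pharynx or intestine in the differences of the members was not tested.

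**Figure D4:**
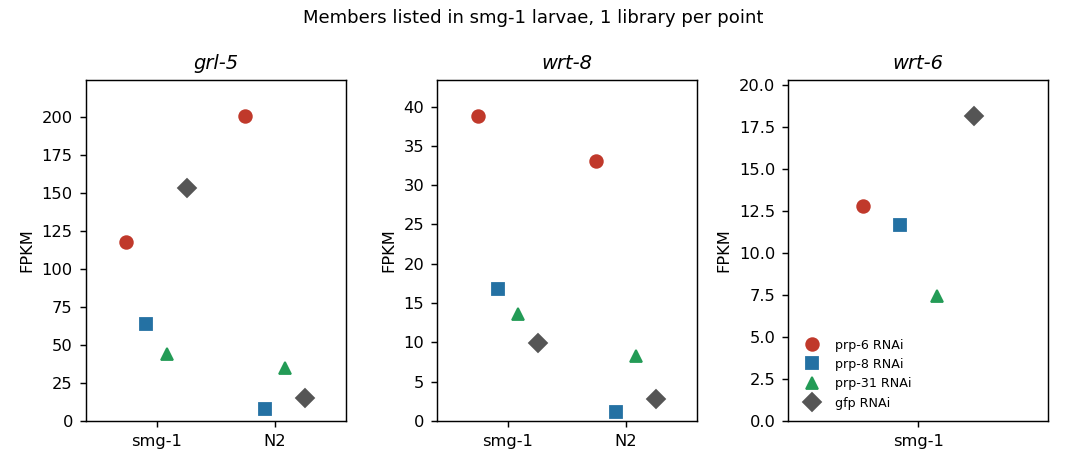
FPKM of grl-5, wrt-8 and wrt-6 (linear axes), 1 point per library, smg-1 left of N2, with the gfp control at the right of each strain. For grl-5 the gfp library is above all knockdowns in smg-1 (153 FPKM) and below prp-6 and prp-31 in N2 (14.8 FPKM). Only smg-1 values exist for wrt-6.

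The members grl-5 and wrt-8 were listed in both larval strains, and their levels can be set side by side. The sources used here do not say whether the FPKM of the 2 strains were scaled together, so these levels are set across separately deposited tables. For the 147 genes listed in both strains (30.9 percent of the N2 and 30.3 percent of the smg-1 list), the smg-1 gfp library had a median log2 ratio of 0.11 to the N2 gfp library, with quartiles of −0.13 and 0.42. For grl-5 the smg-1 control was 9.76-fold above that of N2, the largest ratio of the 147. For wrt-8 it was 2.93-fold, the ninth largest (rank 9).

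Under prp-6 the strains differed less than under gfp: grl-5 was 0.591-fold and wrt-8 1.17-fold in smg-1 relative to N2. Under prp-31 the ratios were 1.27 and 1.58. Under prp-8 they were wide apart again, 7.21-fold for grl-5 and 8.22-fold for wrt-8, from 64.2 FPKM in smg-1 against 8.05 FPKM in N2 and from 16.8 against 1.17 FPKM. Over the 147 genes the median log2 ratio of smg-1 to N2 was −0.15 under prp-6, −0.06 under prp-8 and 0.05 under prp-31. Ordered over the 8 larval libraries, grl-5 was highest in N2 under prp-6, followed by smg-1 under gfp and under prp-6, and lowest in N2 under prp-8. For wrt-8, smg-1 under prp-6 came first and N2 under prp-6 next, and N2 under prp-8 was again the lowest. With 1 library each, no neighbours in these orders can be shown to differ.

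Of the 147 shared genes, 141 were listed in the same direction in both strains and 6, or 4.08 percent, in opposite directions. All 6 were lower in smg-1 and higher in N2, and grl-5 was among them, with mlt-10, lips-9, C38C6.3, H23N18.5 and ZC434.3. These 6 had the 6 largest ratios of the smg-1 to the N2 control, 6.02-fold to 9.76-fold. A control at least 4-fold higher in smg-1 was seen for 8 of the 147 genes, or 5.44 percent, and a control at least 4-fold lower for none. The moulting gene mlt-10 had 120, 105 and 75.5 FPKM under prp-6, prp-8 and prp-31 in smg-1, against 174 under gfp, and 145, 27.1 and 46.6 FPKM in N2, against 28.1 under gfp. A higher denominator lowers every fold of a strain, so the opposite directions and the control levels are not separate measurements.

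**Figure D5:**
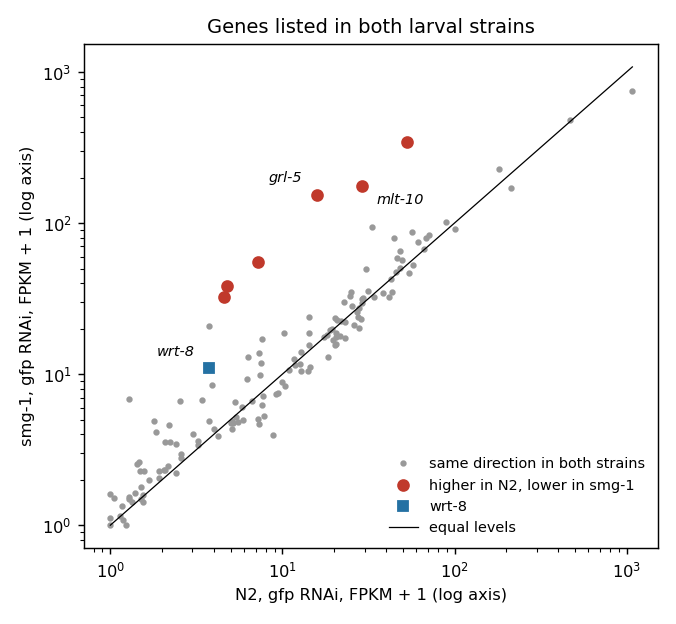
Level under gfp RNAi of the 147 genes listed in both larval strains, N2 on the x axis and smg-1 on the y axis (FPKM + 1, log axes), 1 point per gene. The 6 genes listed as lower in smg-1 and higher in N2, grl-5 among them, lie 6.02-fold to 9.76-fold above the line of equal levels, and wrt-8 2.93-fold above it.

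In glp-4 adults, prp-8 and prp-31 RNAi gave no value for the members. None of the 6, and none of the 84 annotated family genes, was among the 146 genes of the glp-4 tables. In these, 0.24 percent of protein-coding genes were listed as higher and 0.42 percent as lower, counting entries matched by name. Since only selected genes were deposited, this does not show whether the members differed in adults.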

How the data were processed

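Poly(A)-enriched RNA of whole worms was sequenced in 11 libraries, 1 per group, as paired-end reads of 73 bp, per the labels' protocols. Groups were taken from the sample titles. The submitters' processing notes name Cufflinks and Cuffdiff, and versions, aligner, build and annotation are not given in the sources. Per the file headers, the 6 deposited tables hold FPKM by library and pooled FPKM, and for the pooled knockdowns against gfp the log2 fold, the p-value and the q-value. Members, lists and alternatives were chosen with earlier results of these data known.

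From the single-library FPKM, log2 ratios of FPKM + 1 were computed. No test was made with 1 library per group. All 6 members are named. Other listed genes of the family and pathway are given as counts with the 3 largest and 3 smallest prp-6 folds among those named (grl-16, qua-1 and daf-6 were added after their values were seen), and the 3 nearest profiles are named for each member. Introns, coding lengths and family sizes come from Ensembl release 115 (WBcel235), matched by name; deposited intervals are printed as they stand. Of these, 488 of 789 (61.9 percent) lie inside the gene of that name in WBcel235; those of ptr-17 and grl-7 reach beyond it. The intervals differ in extent: 96 bases for grl-5, 167 for wrt-8, 300 for grl-15 and 501 for grl-7. The annotated lengths of these genes are 1916, 2528, 3383 and 2185 bases. Those of wrt-6 (3411 bases) and ptr-17 (8569 bases) are about as long as the genes (3417 and 8217 bases). Whether the FPKM of different members rest on unlike parts of the genes was not checked. Promoter and protein sequences were not analysed here. The code ran in Python 3.11.15 (with pandas 2.3.3, numpy 2.4.6 and, for figures, matplotlib 3.10.9) and was tested on simulated data.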

Additional observations from a re-analysis of the deposited data

Results flagged for a closer look

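Under the same contrast, knockdown against gfp, 2 members moved in opposite directions in the larval strains. These differences were not tested, since each rests on 1 library per group. For grl-5 with prp-6 RNAi the log2 fold was −0.37 in smg-1 and 3.67 in N2, a difference of −4.05. For grl-5 with prp-31 RNAi it was −1.77 in smg-1 and 1.18 in N2, a difference of −2.95. For wrt-8 with prp-8 RNAi it was 0.70 in smg-1 and −0.79 in N2, a difference of 1.49. With the median of all entries of the strain subtracted, wrt-8 under prp-8 was negative in both strains, −0.56 in smg-1 and −1.14 in N2. The grl-5 values kept opposite signs, −1.08 in smg-1 and 1.95 in N2 under prp-6, and −2.03 in smg-1 and 0.59 in N2 under prp-31. Of the 147 genes listed in both strains, 6.8 percent had opposite signs with prp-6, 2.72 percent with prp-8 and 12.2 percent with prp-31. Beside the first 2 differences stands the level of the controls, 153 FPKM in smg-1 and 14.8 FPKM in N2; its part in them was not tested.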

How the results depend on the processing

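Leaving out a library touches the mean over knockdowns: the median log2 fold of the mean knockdown ranged from 0.67 (without prp-6) to 2.54 for the N2 members, from 0.39 to 1.78 for the other family and pathway genes and from 0.52 to 2.12 for the cuticle and moulting list. Subtracting the strain's median over both tables, in N2 0.58 for prp-31, 0.35 for prp-8 and 1.72 for prp-6, moved the most values, by construction. The N2 members' median was then 1.55 with prp-6 (4 of 5 at least 2-fold higher) and 0.77 for the mean knockdown, none was at least 2-fold higher with prp-31, and the ratios of prp-6 to prp-8 and to prp-31 had medians of 1.47 and 1.17. In smg-1, 2 members were then at least 2-fold lower with prp-6 and 2 with prp-8. The other family and pathway genes had medians of 0.63 with prp-6 and 0.021 for the mean knockdown, with 2 at least 2-fold higher with prp-6 and 0 with prp-31, and the cuticle list 0.84 and 0.26, with 19 and 3. The share of all listed genes past 2-fold was not computed for these subtracted folds in either strain. A pseudocount of 0.1 FPKM put 1 N2 member at least 2-fold higher with prp-8. With 5 FPKM the counts with prp-31 were 1 N2 member, 1 lower smg-1 member, 1 other family or pathway gene and 11 cuticle genes. In all, 109 of 132 alternative values of the summaries and 130 of 160 of single members stayed within 1.5-fold (leaving out a library was counted for the mean knockdown only), and no value that was past 2-fold changed sign. No paired analysis was possible because each group has 1 library and no test was made. The promoter window was not run. Only a lower bound of depth is given, and low values, above all those of ptr-17, are the least certain.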
